A study of Saccharomyces cerevisiae with 232 samples.

Results

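The proteins of the small (40S) subunit of the cytosolic ribosome are encoded in budding yeast, Saccharomyces cerevisiae, by genes named RPS. All genes whose symbol is RPS followed by a number, with a final A or B where the gene has a paralog, were taken from the expression tables, which gave 56 of 6692 genes. They formed 24 pairs of A and B paralogs and 8 genes with a single copy, among them RPS2, RPS3, RPS12, RPS13, RPS15, RPS20 and RPS31. Every one of the 56 passed the filter on low values, a mean of at least 10 RPKM (reads per kilobase of a gene, scaled to the mapped reads of the library).

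The study compared wild-type yeast, strain BY4741, with 57 strains that each lacked 1 gene for a tRNA-modifying enzyme or a factor it needs, and a strain is written as the deleted gene followed by D. All strains grew in rich medium (YPD) at 30 °C to mid-log phase, and cycloheximide, which stops elongating ribosomes, was given at 100 µg/mL for 30 s. Ribosome-protected footprints, the stretches of mRNA covered by translating ribosomes, were read in 127 libraries. Wild type had 14, kti13D had 1 and the other 56 strains had 2 apiece. Total RNA depleted of rRNA was read in 67 libraries, of which 10 were wild type and every strain had 1, and 6 further footprint libraries (BY4741, elp3D, mod5D, tan1D, trm7D and tyw4D) were made without the drug, from cells harvested by filtration and ground frozen instead of broken with glass beads. The labels give a deletion strain by its deleted gene and do not say whether it is 1 clone. They do not give the cultures behind the libraries either, and the p-values below measure no more than how these libraries spread.

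The depth recovered from the deposited values was 0.811 to 16.3 M reads (M, 1e+06; median 3.11 M) for footprints, 3.77 to 14.2 M (median 10.4 M) for RNA and 3.42 to 7.38 M for drug-free footprints. The deleted gene was below every wild-type library in 57 of 57 strains, in footprints and in RNA. LEU2 and URA3, which BY4741 lacks, were at most 0.277 RPKM in RNA, the a-factor genes MFA1 and MFA2 were read in every library, and the alpha-factor genes did not exceed 1.74 RPKM. HIS3, another auxotrophic marker of this background, where it is deleted only in part, was read at 37.6 to 219 RPKM. MET17, also lacking in BY4741, was read in pus7D (footprints 541 and 521 RPKM, RNA 312) and in the RNA alone of rit1D (311) and kti11D (155), against at most 7.75 in the other footprint and 0.814 in the other RNA libraries. In footprints these 3 strains gave 1, 4 and 15 of the RPS calls below. The libraries also fell into 3 processing sets, with 11, 39 and 6 strains, that each have their own wild-type libraries; results that change when the set enters as a term are given with that value. The 2 libraries of gon7D disagreed for the weakest RPS genes, with RPS22B at 18.5 and 167 RPKM and RPS9A at 35.8 and 173.

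The small subunit binds mRNA, holds the codon against the anticodon of a tRNA and scans for the start codon. Its proteins are made in strict proportion with one another and with rRNA, and their genes are among the most transcribed of a growing yeast cell, where nutrient and stress signals through the TOR and protein kinase A pathways raise and lower them together. Most are present as duplicates that survived an ancient doubling of the genome, and many carry an intron, which is rare for other yeast genes. Some of these introns serve regulation: Rps14 protein binds the RPS14B pre-mRNA and limits its splicing, Rps9 protein limits the splicing of RPS9A, and the RPS22B transcript is cut in an intron by the nuclease Rnt1.

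The results turned on the pairs RPS9, RPS14 and RPS22, in which the copies make nearly the same protein from genes that differ at silent positions. Rps9 sits in the body of the subunit near the decoding site, Rps14 in the platform beside the mRNA exit, and Rps22 in the body. Protein identity between the copies was 97.5% for RPS9, 97.8% for RPS14 and 99.2% for RPS22, and coding identity was 90.9% for RPS9 and 92.1% for RPS14. A 90-base coding window of each copy is shown because its capitals, the 13 or 14 bases that differ between copies, are what lets a read be assigned to A or B. Each window was chosen for having the most differing bases, and other stretches differ less. The RPS14 copies share an identical run of 92 bases. The sequences are from the RefSeq genome, build R64 (sacCer3), on the coding strand: RPS9A chrXVI:405664-405753 (+), RPS9B chrII:605134-605223 (+), RPS14A chrIII:177812-177901 (−), RPS14B chrX:74210-74299 (+), RPS22A chrX:74913-75002 (−) and RPS22B chrXII:857225-857314 (+).
RPS9A: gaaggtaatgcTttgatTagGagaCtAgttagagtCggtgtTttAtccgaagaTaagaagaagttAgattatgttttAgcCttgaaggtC
RPS9B: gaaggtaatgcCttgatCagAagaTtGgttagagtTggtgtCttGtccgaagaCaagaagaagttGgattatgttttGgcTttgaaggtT
RPS14A: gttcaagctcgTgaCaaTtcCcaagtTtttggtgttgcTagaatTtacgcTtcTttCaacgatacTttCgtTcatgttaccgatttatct
RPS14B: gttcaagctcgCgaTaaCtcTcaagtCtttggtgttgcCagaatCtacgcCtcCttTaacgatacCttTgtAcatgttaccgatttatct
RPS22A: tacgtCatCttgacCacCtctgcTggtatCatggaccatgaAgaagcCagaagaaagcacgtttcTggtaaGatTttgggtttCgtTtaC
RPS22B: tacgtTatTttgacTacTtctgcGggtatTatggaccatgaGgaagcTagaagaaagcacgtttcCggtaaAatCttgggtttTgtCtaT

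Reads that map to both copies were not counted by the authors, who kept uniquely mapped reads. Of the 28-base words of RPS9, RPS14 and RPS22 genes, 76.7% to 96.4% were unique in the genome, so their copies were told apart over most of their length. For 8 genes, among them the pairs RPS6, RPS4 and RPS24, fewer than 50% of words were unique, and RPS6A and RPS6B share an identical run of 311 bases of their 711. The RPKM of these pairs is too low as a level, and it rests on 129 positions in RPS6A.

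Introns differed among the 3 pairs, and no intron trait given here was shared by these 3 pairs alone. In the coding sequence, 36 of the 56 genes had an intron, from 256 to 551 bases long with a median of 408.5, and all 36 held ACTAAC, the core of the branch point where the lariat forms, against 93.6% of 281 nuclear coding introns. The usual first bases, GTATGT, opened 24 of the 36, and GTACGT opened 9, against 26 of the 281. RPS9A, RPS9B and RPS14B were among those 9, whereas RPS14A and RPS22B open with GTATGT and RPS22A has no coding intron. ACTAAC was chosen after the 7-base TACTAAC had been looked for and not found in either RPS9 intron; a match describes the letters and shows no splicing. The first 60 bases of each intron follow, with the first 6 in capitals, and then the last 60, with ACTAAC in capitals: RPS9A chrXVI:404957-405016 and chrXVI:405398-405457 (+), RPS9B chrII:604515-604574 and chrII:604868-604927 (+), RPS14A chrIII:178154-178213 and chrIII:177907-177966 (−), RPS14B chrX:73797-73856 and chrX:74145-74204 (+), RPS22B chrXII:856575-856634 and chrXII:856998-857057 (+).
RPS9A start: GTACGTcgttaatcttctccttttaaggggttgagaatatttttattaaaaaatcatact
RPS9B start: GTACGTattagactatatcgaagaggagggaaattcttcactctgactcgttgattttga
RPS14A start: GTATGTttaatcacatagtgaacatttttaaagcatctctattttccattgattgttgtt
RPS14B start: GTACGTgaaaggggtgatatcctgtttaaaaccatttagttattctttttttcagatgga
RPS22B start: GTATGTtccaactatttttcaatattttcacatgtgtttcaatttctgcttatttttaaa
RPS9A end: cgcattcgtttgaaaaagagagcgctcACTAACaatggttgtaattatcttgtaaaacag
RPS9B end: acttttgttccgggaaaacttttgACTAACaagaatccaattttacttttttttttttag
RPS14A end: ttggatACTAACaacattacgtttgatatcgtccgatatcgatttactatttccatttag
RPS14B end: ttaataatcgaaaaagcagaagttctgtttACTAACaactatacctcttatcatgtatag
RPS22B end: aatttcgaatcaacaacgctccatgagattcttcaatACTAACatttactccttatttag

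In wild type the 56 genes took 12.2% of the summed RPKM of footprints (11.6 to 12.9% over 14 libraries) and 11.7% of RNA (11.4 to 12.01% over 10). Footprints exceeded RNA for 53 of the 56 genes, and the median log2 of footprints over RNA was 0.51, against 0.08 over all 4253 genes tested and 0.56 over the 82 large-subunit genes. The exceptions were RPS22B at −0.89 and RPS6A and RPS6B at −0.16 and −0.18. The ratio was highest for RPS29B (1.58), RPS15 (1.36) and RPS29A (1.27).

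Single-copy genes stood above most duplicated ones on the RPKM scale, with wild-type footprint medians of 2643 to 7294 against 231 to 5039. RPS31, which encodes ubiquitin fused to a protein of the head, had the highest footprint level (6546, 7294 and 8329 RPKM as the lowest, median and highest of 14 libraries). RPS15 of the head, near the decoding site, followed with 5856, 6777 and 9035. These ranges overlapped. In RNA, RPS31 was again highest with a median of 5773, ahead of RPS12 with 4213. The summed level of a pair had a median of 2500 RPKM over the 24 pairs, and 3683 when counted per position with a unique word, against 5247 for the single-copy genes.

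The lowest footprint levels belonged to 1 copy each of the 3 pairs. RPS9A had 198, 231 and 275 RPKM (lowest, median, highest), RPS22B had 203, 283 and 325, and RPS14B had 289, 330 and 401. Their partners were far above them: RPS9B at 1909 to 2715, RPS22A at 3424 to 4851 and RPS14A at 2033 to 2679. In RNA the lowest genes were RPS9A with a median of 208, RPS14B with 291 and RPS24B with 328, the last a gene with few unique positions.

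The copy that was higher in every wild-type footprint library was A in 13 pairs and B in 9, and the ranges of RPS6 and RPS30 overlapped. In RNA it was A in 14 and B in 8, and in 20 of the 24 pairs both assays named the same copy. The ratio of A to B exceeded 4-fold in either direction in 3 pairs. Its log2 in footprints was 3.90 ± 0.13 (SD, n = 14) for RPS22, 2.85 ± 0.20 for RPS14 and −3.28 ± 0.09 for RPS9. Next came RPS26 at 1.16 ± 0.06 and, toward B, RPS27 at −0.97 ± 0.23 and RPS0 at −0.44 ± 0.10, whereas 14 pairs lay within 1.5-fold.

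Footprints and RNA gave different ratios for some pairs. For RPS22 the log2 ratio was 3.90 in footprints and 2.36 ± 0.08 (SD, n = 10) in RNA, and the ranges, 3.57 to 4.08 and 2.26 to 2.46, did not overlap. RPS22B thus gave 16.3% of the RNA of its pair and 6.26% of the footprints. RPS14 differed in the same direction, 2.85 against 2.22 ± 0.09, and RPS7 in the other, 1.07 ± 0.29 against 1.59 ± 0.06. Whether reads from unspliced RNA enter the RNA value of an intron-bearing copy was not tested.

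**Figure D1:**
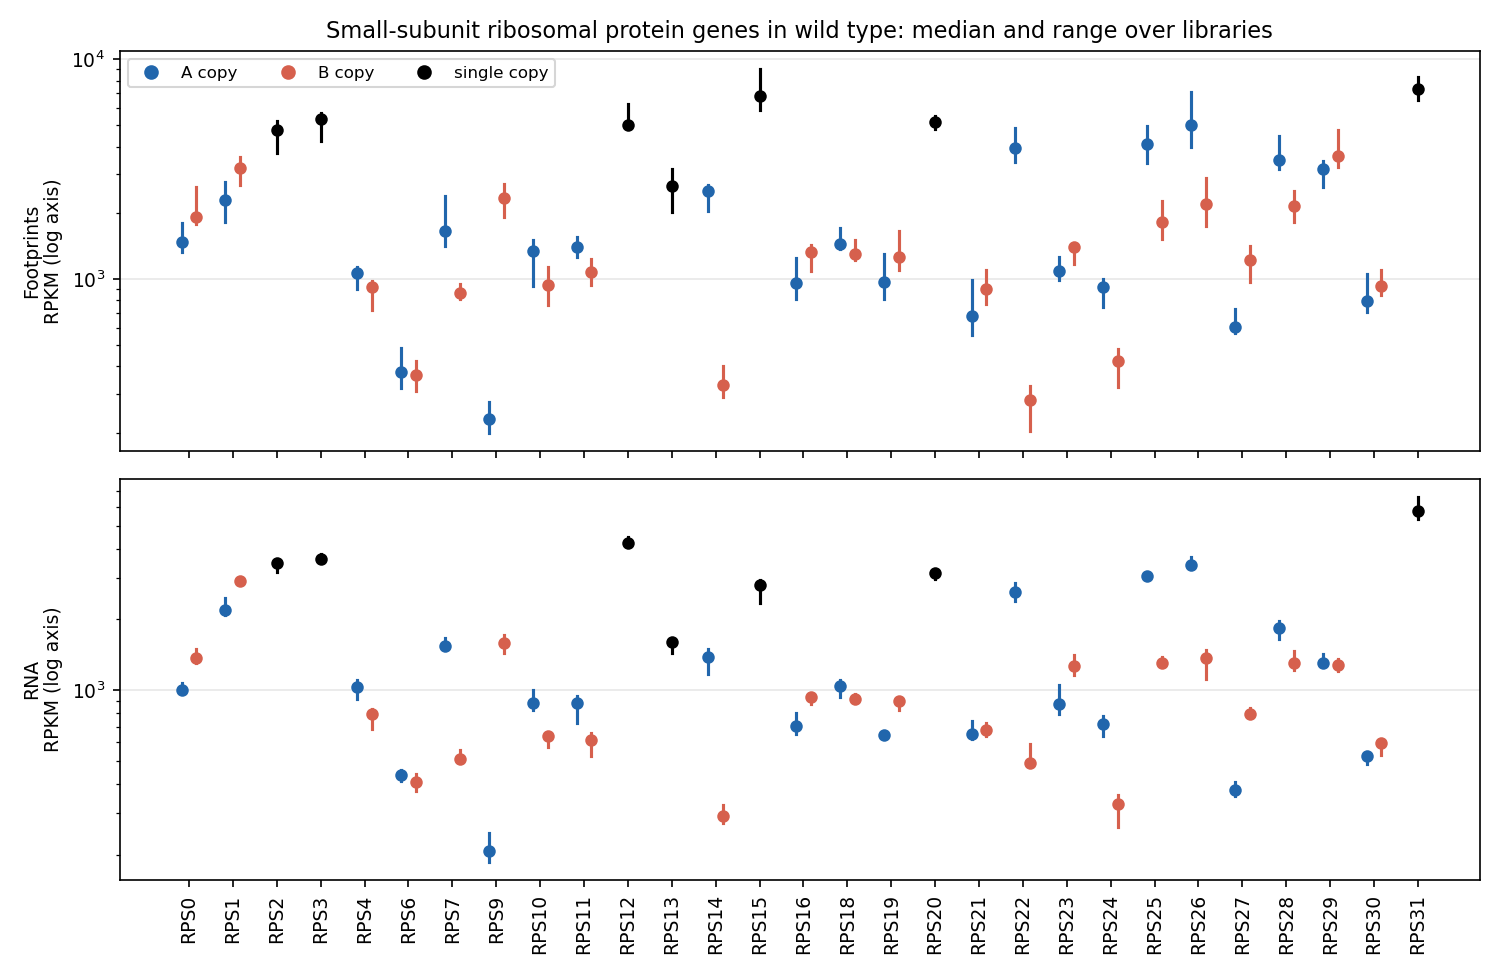
Wild-type levels of RPS genes in footprints and RNA, in RPKM on log axes (points, medians over 14 footprint and 10 RNA libraries; lines, lowest to highest library). Single-copy genes lie between 2643 and 7294 RPKM in footprints, and RPS9A, RPS22B and RPS14B lie lowest at 231, 283 and 330.

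The genes shared their codon choice. Of lysine codons in the 56 genes, 83.5% were AAG, against 41.1% in the 5850 genes outside the ribosomal proteins. GAA made up 96.4% of glutamate codons (69.9% in other genes) and CAA 98.5% of glutamine codons (68.3%). AGA made up 80.4% of arginine codons (46.9%). The large-subunit genes had nearly the same shares, with AAG at 83.5% and CAA at 97.9%. As background, AAA, CAA and GAA are read by tRNAs whose wobble uridine Elongator and the thiolation pathway modify.

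Over the 56 strains with 2 footprint libraries, 80 of 3136 gene-by-strain values of RPS genes were higher than wild type and 529 were lower (limma, adjusted p under 0.05 over all genes of a strain). That is 2.55% and 16.9%, where 10.2% of all gene-by-strain values were higher and 6.17% lower. With the processing set as a term the counts fell to 44 and 353 of 3080, in 55 strains, since dus2D has no set. The strains divided sharply: 18 of 56 had no RPS call (30 of 55 with the set term), 9 had at least 20 (6 with it), and 5 held 25 of the higher and 211 of the lower calls. These 5 were gon7D, sit4D, bud32D, trm7D and trm112D, and they are described in turn. Cultures were read in bulk and RPKM is relative to the library, so a fall in every cell, a fall in some of the cells and a rise of other messages cannot be told apart.

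**Figure D2:**
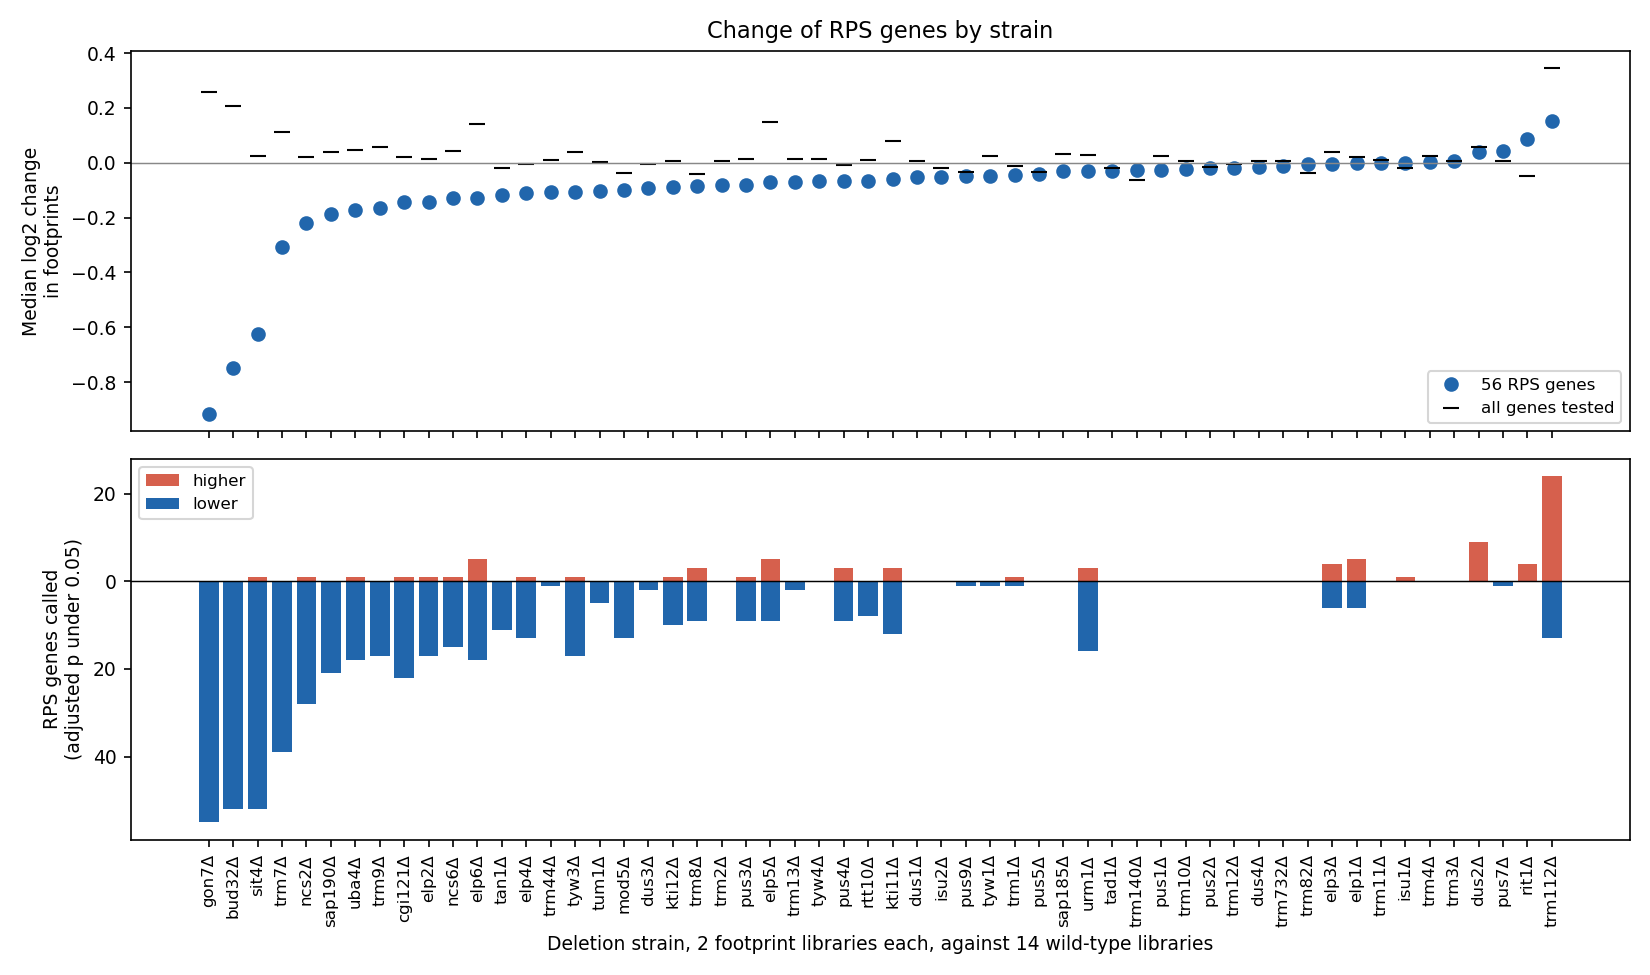
By deletion strain, the median log2 change in footprints of the 56 RPS genes (points) and of all tested genes (dashes) above, and the number of RPS genes called higher or lower by limma (bars) below. The RPS medians of gon7D, bud32D and sit4D are the lowest, at −0.92, −0.75 and −0.63.

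GON7 and BUD32 encode subunits of KEOPS, which adds a threonylcarbamoyl group to the adenosine next to the anticodon of tRNAs that read codons starting with A. In gon7D, 55 of 56 RPS genes fell and none rose, where 22.3% of all tested genes fell and 49.7% rose, and the RPS median was −0.92 log2 against 0.26 over all genes. RPS3, at the entrance of the mRNA channel, read 2483 and 2170 RPKM in gon7D against 4258 to 5700 in wild type (log2 −1.15, SE 0.06, adjusted p 7.80e-29). RPS20, its neighbour in the head, read 2505 and 2259 against 4812 to 5516 (−1.13, SE 0.05, adjusted p 4.55e-30). RPS7B of the body read 430 and 378 against 815 to 947 (−1.10, SE 0.06, adjusted p 7.43e-29). Both libraries lay below every wild-type library for all 3. RPS27A alone was not called, at −0.13, and RPS22B had the lowest estimate, −2.26, from the 2 libraries that disagreed.

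In bud32D, 52 of 56 fell and none rose (all genes, 22.0% lower and 44.6% higher), with a median of −0.75 against 0.21. RPS9A read 14.2 and 23.9 RPKM against 198 to 275 in wild type (−3.62, SE 0.17, adjusted p 1.95e-30). RPS25B, a head protein near the exit site of tRNA, read 613 and 690 against 1523 to 2265 (−1.51, SE 0.08, adjusted p 1.98e-27), and RPS3 read 2368 and 2848 (−0.99, SE 0.06, adjusted p 5.23e-25). The 4 genes not called included RPS24B, RPS10A and RPS27A. Chromosomes II and IX stood 0.67 and 0.66 log2 above the median of all genes in this strain, and the 5 RPS genes on them, among them RPS24B, RPS6B, RPS11B and RPS9B, had a median of −0.20 with 3 of 5 called lower, against −0.78 and 49 of 51 elsewhere. The part of those chromosomes in the difference was not tested.

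RNA moved with footprints in both strains. In gon7D, 54 of 56 RPS genes lay below all 10 wild-type RNA libraries, where 23.7% of all genes did, and the RPS median was −0.94. In bud32D it was 55 of 56 (all genes, 25.8%) with a median of −1.11. The RNA values farthest from wild type were RPS9A in bud32D, 46.7 RPKM against 187 to 247 (log2 −2.14), RPS22B in gon7D, 125 against 474 to 591 (−2.01), and RPS25B in bud32D, 408 against 1262 to 1383 (−1.69). RPS14B in bud32D read 96.1 against 274 to 326 (−1.60) and RPS25B in gon7D 440 against 1262 to 1383 (−1.57). Each of these 5 is the weaker copy of its pair. The values that follow include stronger copies, such as RPS1B in bud32D (−1.33), and single-copy genes, such as RPS31 in bud32D (−1.37).

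SIT4 encodes a protein phosphatase that keeps Elongator active and also acts in nutrient signalling. In sit4D, 52 RPS genes fell and 1 rose (all genes, 23.7% lower and 26.9% higher), with a median of −0.63 against 0.02. RPS9B read 1158 and 1099 RPKM against 1909 to 2715 in wild type (−1.04, SE 0.08, adjusted p 5.04e-18). RPS25B read 992 and 858 against 1523 to 2265 (−1.005, SE 0.08, adjusted p 4.90e-18) and RPS2, at the mRNA entrance, 2754 and 2696 against 3756 to 5238 (−0.78, SE 0.06, adjusted p 1.25e-17). RPS14B was the gene that rose, with 472 and 590 against 289 to 401 (0.63, SE 0.11, adjusted p 6.22e-07). In the RNA of sit4D, 54 of 56 were below the wild-type range (all genes, 24.6%) and 2 above (all genes, 37.0%).

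TRM7 encodes the methyltransferase of ribose groups in the anticodon loop. In trm7D, 39 RPS genes fell and none rose (all genes, 16.9% lower and 30.6% higher), with a median of −0.31 against 0.11. The count was 47 with the set term, 18 without the first library of every strain and 25 without the second. RPS12 of the head read 3174 and 3332 RPKM against 4800 to 6255 in wild type (−0.69, SE 0.08, adjusted p 2.33e-12). RPS31 read 4731 and 4840 against 6546 to 8329 (−0.63, SE 0.07, adjusted p 5.05e-13), and RPS2 3051 and 3182 against 3756 to 5238 (−0.59, SE 0.06, adjusted p 2.01e-12). The single-copy genes had a median of −0.60 and the duplicated ones of −0.27. Spearman's rho between level and change over the 56 genes, which share their libraries, was −0.52, against −0.33 over all tested genes. In gon7D, sit4D, bud32D and trm112D the rho over the 56 genes was −0.03, 0.01, −0.08 and −0.06. The wild-type level also enters the change itself. In the RNA of trm7D, 50 of 56 were below the wild-type range (all genes, 21.6%), with a median of −0.23.

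TRM112 encodes the partner that several methyltransferases need, among them Trm9 and Trm11 for tRNA and Bud23 for 18S rRNA in the maturing small subunit. In trm112D, 24 RPS genes were called higher and 13 lower (all genes, 57.0% higher and 13.9% lower), but the direction of the set flips to 6 higher and 27 lower when every library is centred on its median, since the median of all genes was 0.35. Relative to that shift the RPS median, 0.15, was low. Of the 8 single-copy genes, 6 fell and 1 rose, with a median of −0.55. Of the 48 duplicated ones, 23 were called higher and 7 lower, with a median of 0.18, which is above 0 but below the 0.35 of all genes.

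RPS9A read 13.3 and 18.0 RPKM in trm112D against 198 to 275 in wild type (−3.85, SE 0.17, adjusted p 2.92e-32), its lowest value in any strain. RPS2 read 2266 and 2445 against 3756 to 5238 (−0.99, SE 0.06, adjusted p 1.20e-22) and RPS20 2934 and 3092 against 4812 to 5516 (−0.79, SE 0.05, adjusted p 4.54e-21). Of those that rose, and were still called higher after centring, RPS10B, at the mRNA entrance, read 1797 and 1983 against 764 to 1139 (1.02, SE 0.10, adjusted p 7.52e-14), and RPS26A, at the mRNA exit, 9074 and 8823 against 3984 to 7080 (0.85, SE 0.10, adjusted p 1.54e-11). RPS7B read 1126 and 1280 against 815 to 947 (0.47, SE 0.06, adjusted p 3.71e-11), and after centring its change was 0.12 with an adjusted p of 0.15.

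In trm112D footprints and RNA differed for some genes. Others changed by nearly the same amount in both, such as RPS9B (−0.36 and −0.43). RPS20 was 3599 RPKM in RNA, above the wild-type range of 2968 to 3287, with footprints below theirs, and RPS26A was 3519, inside its range of 3259 to 3675. RPS9A was 100 against 187 to 247, a log2 change of −1.06 beside −3.85 in footprints. Over the 56 genes, 19 lay below the wild-type RNA range (all genes, 20.5%) and 13 above (all genes, 48.3%). With 1 RNA library, these values have no replicate check.

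**Figure D3:**
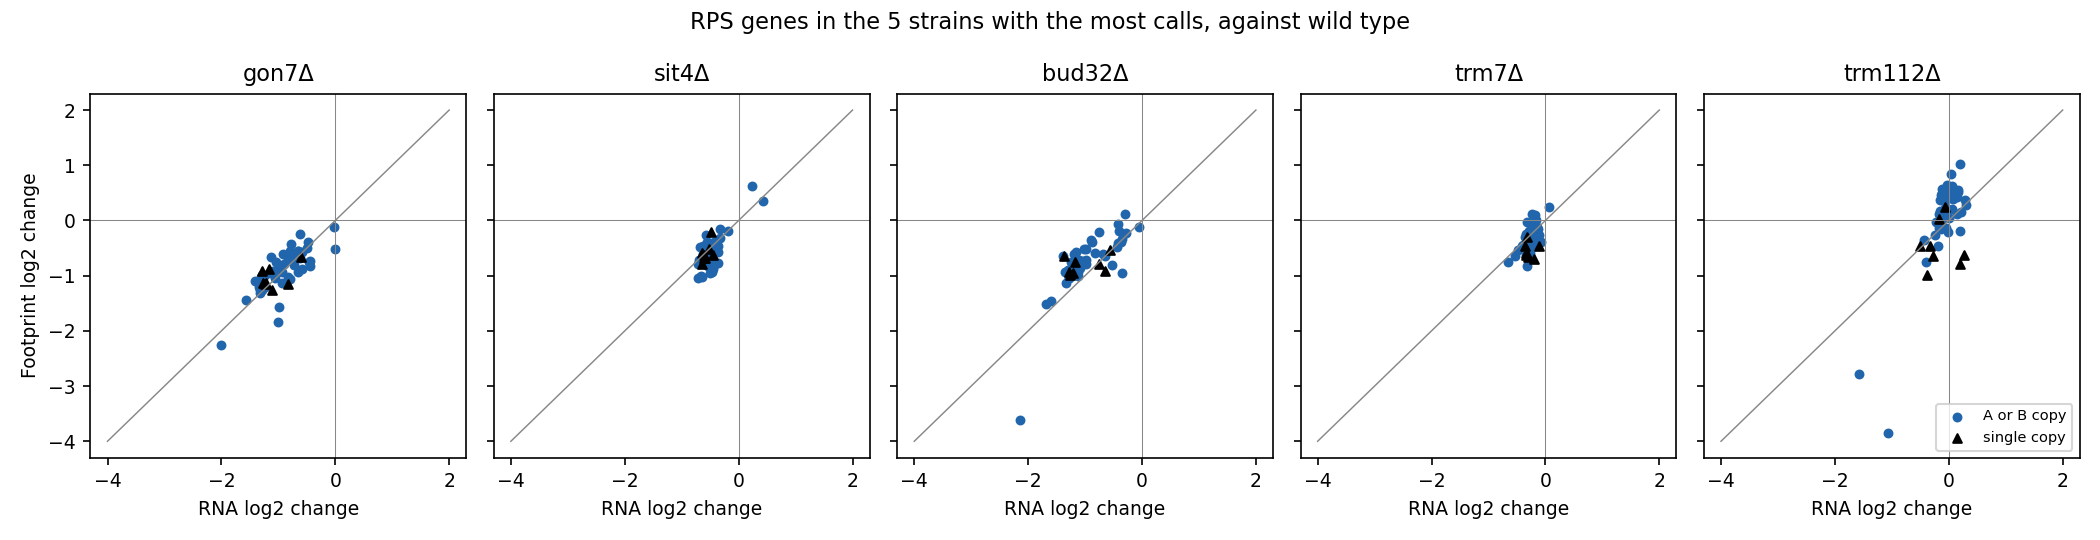
Log2 change in footprints against log2 change in RNA for each RPS gene in the 5 strains with the most calls (circles, A or B copies; triangles, single-copy genes; diagonal, equal change). In gon7D, bud32D and sit4D nearly all points lie below 0 on both axes, and in trm112D the single-copy footprints have a median of −0.55 against 0.18 for the copies and 0.35 for all genes.

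Head and body proteins had similar medians in these 5 strains. In gon7D the head genes had a median of −0.78 (22 of 22 fell) and those of the body and platform −0.97 (33 of 34 fell). The medians were −0.62 and −0.65 in sit4D and −0.75 and −0.75 in bud32D. In trm7D they were −0.35 and −0.27, and in trm112D 0.23 and 0.12. No difference between head and body was tested.

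A and B copies could move apart. The log2 ratio of A to B was tested in each strain over all 61 pairs of genes in the table with such names, 24 of them RPS. Of 1344 pair-by-strain ratios of RPS, 228 were called, 98 toward A and 130 toward B, where 17.6% of the ratios of all 61 pairs were called. With the set term 117 were called and the balance turned, with 67 toward A and 50 toward B; without gon7D in the fit it was 296, with 128 and 168. With the set term RPS16 went from 3 and 17 strains to 1 and 0, and RPS7 from 5 and 14 to 2 and 0. RPS9 (3 and 15 strains, then 3 and 14) and RPS14 (6 and 17, then 6 and 12) kept most of their calls.

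The 12 largest called changes all came from RPS9, RPS14 and RPS22, and all 12 had the same sign in RNA, outside the wild-type RNA range. The log2 ratio of RPS9 was −3.42 to −3.11 in wild type, and it read −6.94 and −6.62 in trm112D (change −3.49, SE 0.19, adjusted p 4.56e-28) and −6.58 and −6.01 in bud32D (−3.01, SE 0.19, adjusted p 6.88e-24). The same ratio was −1.87 and −1.92 in sit4D (1.39, SE 0.19, adjusted p 3.35e-09) and −2.25 and −2.34 in pus3D (0.99, SE 0.19, adjusted p 3.27e-05), which lacks a pseudouridine synthase of the anticodon arm. In pus3D RPS9A rose, with 371 and 391 RPKM against 198 to 275. In sit4D RPS9B fell and RPS9A, at 316 and 289 RPKM, was not called (0.35, adjusted p 0.085).

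RPS14 had a wild-type log2 ratio of 2.55 to 3.13. It read 1.59 and 1.32 in sit4D (change −1.40, SE 0.12, adjusted p 8.65e-17), 4.51 and 3.87 in gon7D (1.33, adjusted p 4.20e-16), 4.45 and 3.35 in bud32D (1.05, adjusted p 3.38e-12) and 3.75 and 4.02 in trm112D (1.03, adjusted p 6.96e-12). RPS14B fell in these last 3 strains, by 1.83, 1.45 and 0.75, while RPS14A changed by −0.50, −0.40 and 0.28, the last of which is −0.07 and not called after centring. In gon7D RPS14B read 97.4 and 92.7 RPKM against 289 to 401, and RPS14A 2241 and 1365 against 2033 to 2679.

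RPS22 had a wild-type log2 ratio of 3.57 to 4.08 and read 6.70 and 6.39 in trm112D (2.64, SE 0.27, adjusted p 3.85e-14), where RPS22B was at 32.1 and 46.5 RPKM against 203 to 325. In gon7D it read 7.16 and 3.11, one library above and one below every wild-type library. The change in RPS22 A over B in gon7D, 1.23 (adjusted p 4.83e-05), rests on library 1: without the first library of every strain the sign turned, to −0.80 with an adjusted p of 7.67e-05. Its RNA ratio in gon7D was 3.55, above the wild-type range of 2.26 to 2.46.

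**Figure D4:**
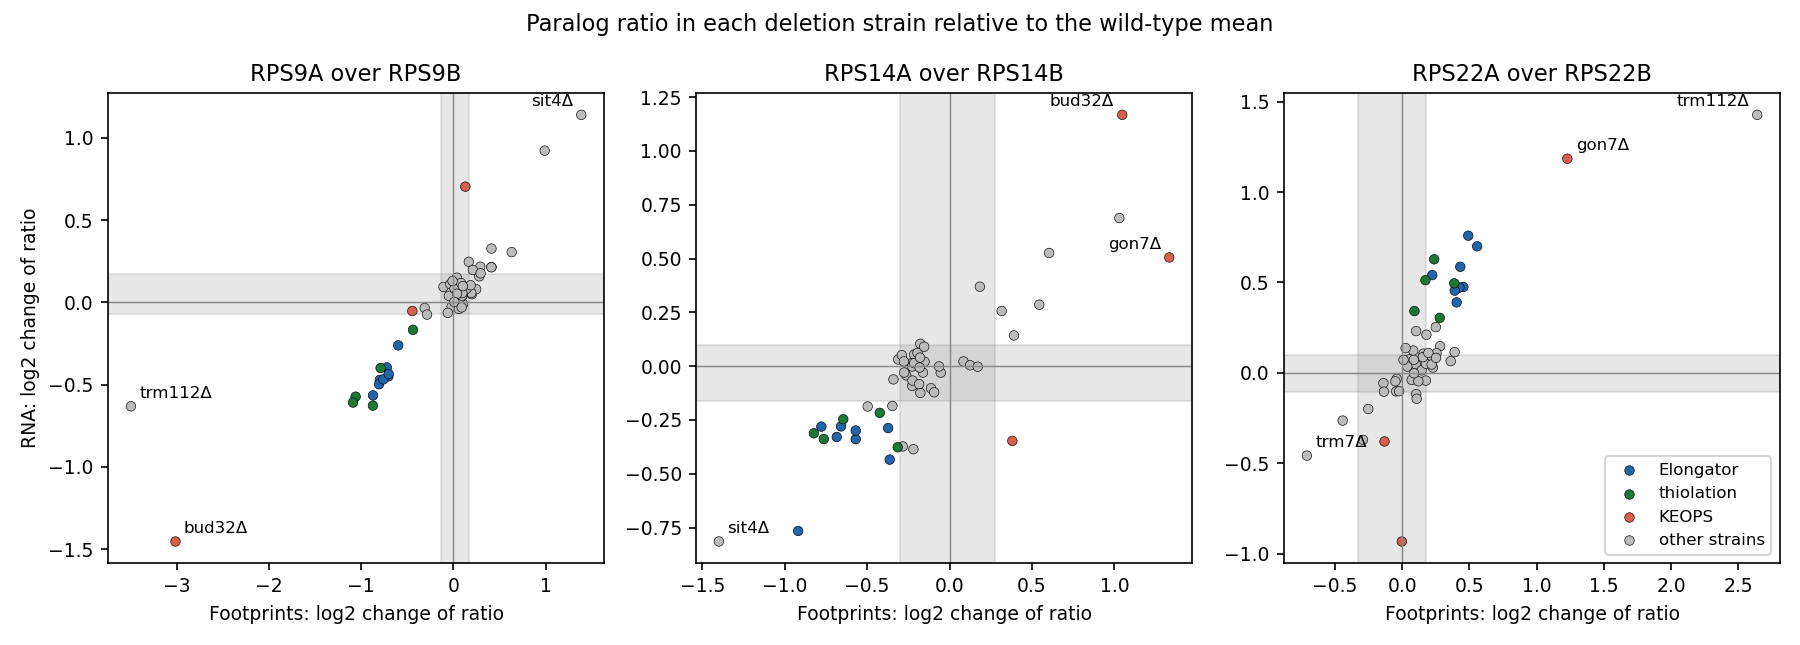
Change of the log2 ratio of A to B in footprints (x axis) and RNA (y axis) for RPS9, RPS14 and RPS22, 1 point a strain, coloured by pathway, with grey bands for the wild-type range. The extremes are RPS9 in trm112D and bud32D (−3.49 and −3.01 in footprints) and RPS22 in trm112D (2.64), on the same side of 0 in RNA.

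Over all pairs, 182 of the 228 called ratios had an RNA ratio on the same side of the wild-type mean, and 120 lay there outside the wild-type RNA range. Of the 1116 ratios not called, 266 lay outside that range. In gon7D 14 RPS ratios were called toward A and 4 toward B (all 61 pairs, 68.9% called, 23 toward A and 19 toward B). In bud32D they were 12 and 6 (all pairs, 70.5% called, 23 and 20). In trm7D they were 9 and 2 (all pairs, 47.5% called, 13 and 16), in trm112D 6 and 6 (57.4%) and in sit4D 5 and 5 (42.6%). Of the 5 RPS pairs with a copy on chromosome II or IX, bud32D called 1 toward A and 4 toward B, against 11 and 2 of the 19 others. Chromosome medians moved with some of the changes: in bud32D the changes of RPS6 (−0.71) and RPS24 (−0.67) left 0.07 and 0.13 after the medians of the chromosomes that carry the copies were subtracted. The same subtraction left −2.23 for RPS9 and 0.67 for RPS14. In gon7D the medians of chromosomes VI, IX, III and I stood −0.55, 0.35, 0.28 and 0.26 log2 from that of all genes. The 2 RPS pairs with a copy on these chromosomes were called 1 toward A and 1 toward B, against 13 and 3 of the 22 others. Chromosomes X and XII, which carry RPS22A and RPS22B, stood at 0.15 and −0.23 in gon7D. The part of the chromosomes in the gon7D ratios was not tested.

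Some members lie near a deleted gene. RPS14B and RPS22A, neighbours on chromosome X, are 8837 and 8146 bases from GON7, and in gon7D they changed by −1.83 and −1.03. The 10 nearest genes tested around RPS14B, GON7 itself among them, had a median change of −0.02. The nearest genes around RPS9A had medians of −0.02 in bud32D and 0.37 in trm112D, and those around RPS22B 0.37 in trm112D. RPS9A, 18504 bases from ELP3, read 151 and 154 RPKM in elp3D, inside the range of the other Elongator strains given below.

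The 3 weak copies were followed through the strains of Elongator and of the thiolation pathway. As a set, the RPS genes did not stand out there: the shares that lay outside the wild-type range in every strain, a comparison added after the data were seen, were near or under those of all genes. Elongator (elp1D to elp6D, with the partners kti11D, kti12D and kti13D) starts the side chain of the wobble uridine of certain tRNAs, and the thiolation pathway (urm1D, uba4D, tum1D, ncs2D and ncs6D) puts sulfur on the same base. RPS9A lay below every wild-type footprint library in 9 of 9 Elongator strains, with 118 to 166 RPKM over 17 libraries against 198 to 275, and in 5 of 5 thiolation strains, with 82.3 to 161. It was 1 of 56 RPS genes to do so in either group, a share near the 1.40% and 1.19% of all genes that did. Its RNA was below the wild-type range of 187 to 247 in 9 of 9 (143 to 181) and in 4 of 5 (134 to 198).

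RPS14B moved the other way. Its RNA lay above the wild-type range of 274 to 326 RPKM in 9 of 9 Elongator strains (332 to 453) and in 5 of 5 thiolation strains (340 to 359), as 1 of 56 RPS genes, where 7.61% and 9.60% of all genes were above in every strain. Its footprints were above the wild-type range of 289 to 401 in 5 of 9 and 3 of 5. RPS22B was below the wild-type RNA range of 474 to 591 in 9 of 9 (315 to 443) and 5 of 5 (295 to 388), as were RPS1B in both groups and RPS26A in thiolation, where 4.15% and 3.62% of all genes were below in every strain. The footprints of RPS22B were below the wild-type range of 203 to 325 in 5 of 9 and 3 of 5. Other members did the same: RPS30A was below its own range in 5 of 9 Elongator strains, and RPS16A in 3 of 5 thiolation strains. No share of all genes was computed for the partial footprint counts of RPS14B and RPS22B. Of the strong copies, RPS9B and RPS14A lay within the wild-type RNA range in all 14 strains. RPS22A lay within it in 9 of 9 Elongator strains and below it in 1 of 5 thiolation strains, and its footprints were below the wild-type range in 1 of 9 and 4 of 5.

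**Figure D5:**
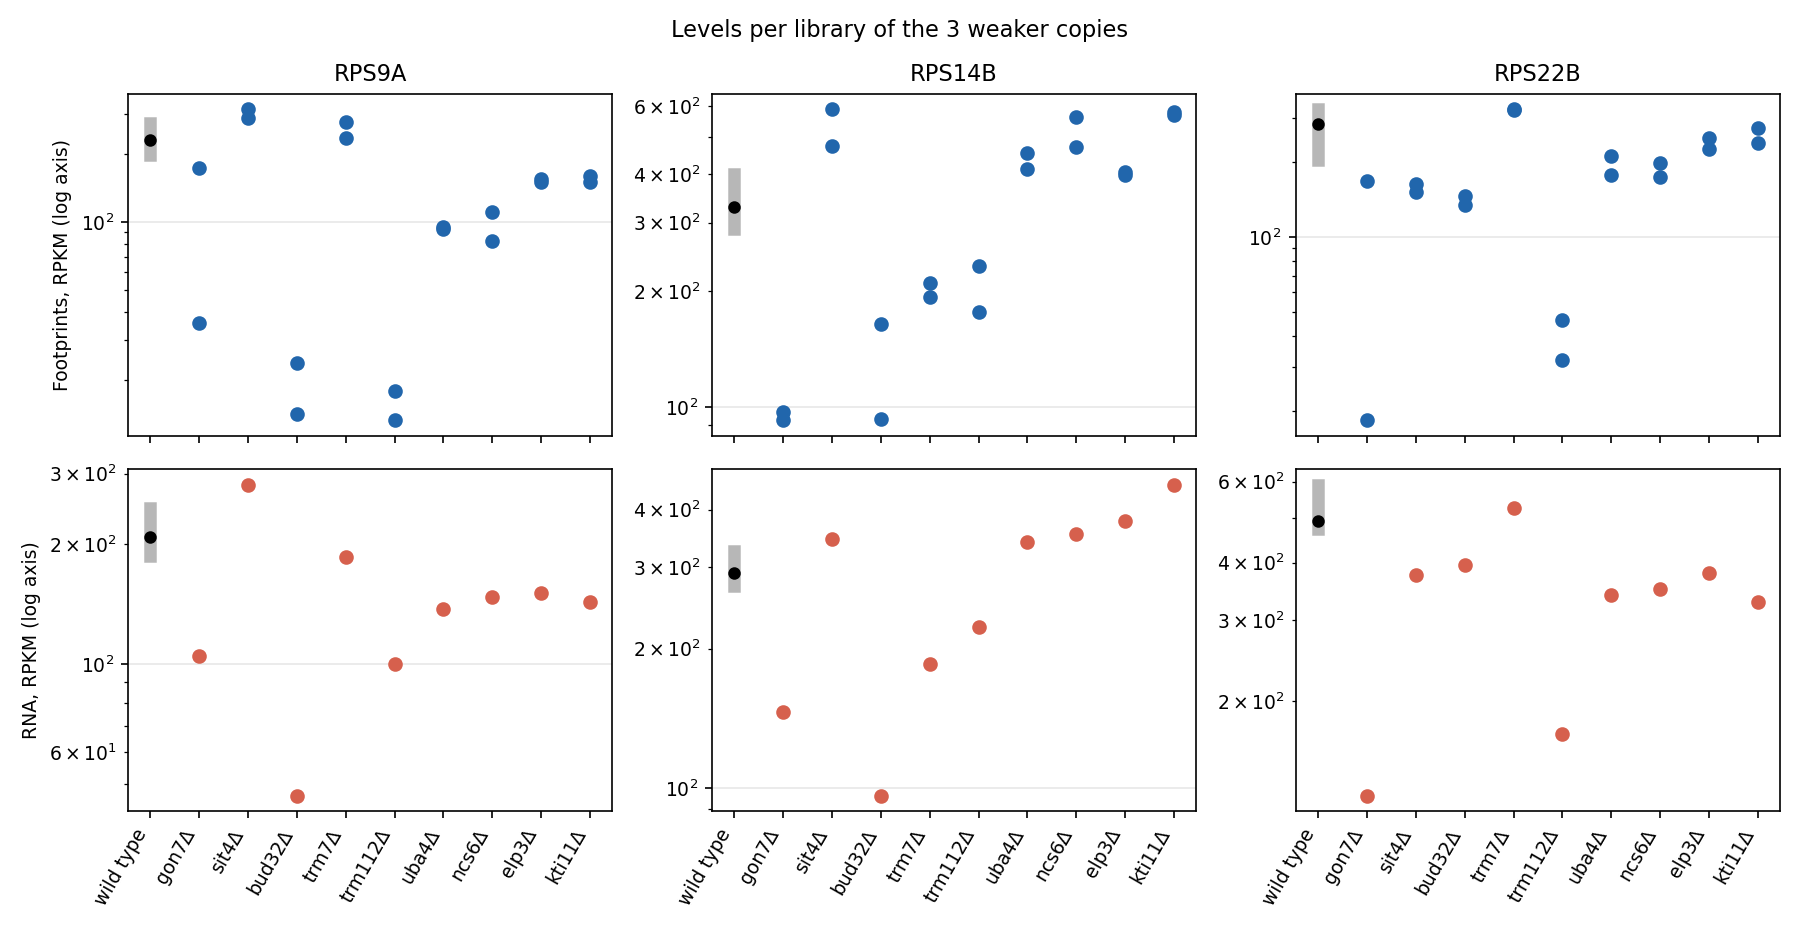
RPKM (log axes) of RPS9A, RPS14B and RPS22B in footprints (2 libraries a strain) and RNA (1 library) in the 5 leading strains, uba4D, ncs6D, elp3D and kti11D, beside wild type (bar, range; black point, median). RPS9A lies below its wild-type footprint range of 198 to 275 in uba4D, ncs6D, elp3D and kti11D, and RPS14B RNA lies above 326 in these 4 strains.

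As ratios, RPS9 was shifted toward B in 8 of 8 Elongator strains with 2 libraries, by −0.60 to −0.87, and all 8 were called with and without the set term. In thiolation it was shifted in 5 of 5, by −0.44 to −1.09, with 4 called, and uba4D (−1.09, adjusted p 1.27e-05) and ncs6D (−1.06, adjusted p 1.16e-05) were the largest. RPS14 was lower in 8 of 8 (8 called, 7 with the set term) and in 5 of 5 (5 called, 4 with it), from −0.36 to −0.92 and from −0.31 to −0.82. RPS22 was higher in 8 of 8 and 5 of 5, by 0.09 to 0.56, with none called in footprints. In KEOPS strains RPS14 went toward A in 3 of 3, by 0.38 to 1.33, all called. Its RNA ratio was higher than wild type in bud32D and gon7D and lower in cgi121D, at −0.35.

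With each strain as 1 value, the footprints of 1 RPS gene rose and 6 fell in Elongator (all genes, 24.2% higher and 10.6% lower). RPS14B rose by 0.39 log2 (SE 0.11, adjusted p 0.0038). RPS30A, RPS14A and RPS4A fell by 0.24, 0.21 and 0.16 (adjusted p 0.0060, 0.0038 and 0.013), and RPS9A fell by 0.75 (SE 0.25, adjusted p 0.013). In RNA 1 rose and 3 fell (all genes, 17.3% higher and 11.8% lower): RPS14B rose by 0.30 (adjusted p 0.014), while RPS22B fell by 0.51 (SE 0.13, adjusted p 0.0022), RPS9A by 0.42 (adjusted p 0.017) and RPS4A by 0.16 (adjusted p 0.017). RPS4A has unique words over 36.9% of its length. The RNA count was again 4 without kti11D and rit1D, whose RNA libraries read MET17.

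In thiolation, 1 gene rose and 6 fell in footprints (all genes, 12.3% higher and 7.99% lower). RPS9A fell by 1.00 (SE 0.30, adjusted p 0.011), RPS14A by 0.22 (adjusted p 0.023) and RPS4A by 0.18 (adjusted p 0.036), and RPS14B rose by 0.37 (SE 0.13, adjusted p 0.038). Leaving out uba4D, ncs2D or ncs6D left 1 call, and with the set term RPS14B had an adjusted p of 0.14. In RNA none rose and 3 fell (all genes, 6.02% lower): RPS22B by 0.54 (adjusted p 0.012), RPS4A by 0.21 (adjusted p 0.012) and RPS9A by 0.46 (adjusted p 0.038). Without ncs2D 1 of the 3 was left, and the call of RPS9A was also lost without urm1D, uba4D or ncs6D, with adjusted p of 0.074 to 0.10 over those 4.

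In the RNA ratio of A to B, 5 of the 24 RPS pairs were called in Elongator and none in thiolation. In Elongator 2 RPS pairs shifted toward A, RPS22 among them (0.51, adjusted p 0.0041), and RPS9, RPS14 and RPS30 toward B (−0.42, −0.37 and −0.12, adjusted p 0.015, 0.0095 and 0.0093), where 6.56% of the 61 pairs were called in each direction. In thiolation no RPS pair was called by limma (of the 61 pairs, 3.28% were called toward A and 1.64% toward B). An unadjusted p under 0.05 was found there for 8 of the 24 RPS pairs and for 16 of the 61. RPS9 there was at −0.47 with an adjusted p of 0.053, and 2 pairs were called with the set term. Elongator and thiolation share their wild-type libraries.

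KEOPS, as a group of bud32D, gon7D and cgi121D, had 50 RPS genes lower and none higher in footprints (all genes, 17.9% and 39.3%), with a median of −0.60 against 0.17, and 55 lower in RNA (all genes, 16.8%). It rests on the strains described above: cgi121D alone had 22 lower and 1 higher (all genes, 15.9% lower and 18.1% higher). The RPS median in cgi121D was −0.14 against 0.02 over all genes. The leading genes were RPS4B (−0.84, SE 0.09, adjusted p 1.42e-11), RPS0B (−0.91, SE 0.10, adjusted p 4.80e-11) and RPS0A (−0.67, SE 0.08, adjusted p 5.05e-11), the RPS0 proteins being needed for rRNA maturation in the small subunit. In RNA they were RPS0B (−0.96) and RPS25B (−1.21). Of the RNA ratios, 11 RPS pairs shifted toward A and 4 toward B (of the 61 pairs, 32.8% and 31.1%).

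Translational efficiency, footprints relative to RNA, was the group difference between assays. By limma no RPS gene was called in Elongator (all genes, 0.141% higher and 0.0941% lower) or in thiolation (0% in each direction), and none had an unadjusted p under 0.05, against 381 and 382 of 4253 genes. For RPS9A the estimate was −0.33 (SE 0.29) in Elongator and −0.54 (SE 0.35) in thiolation. In KEOPS 1 gene was called by limma, RPS29B, a zinc-binding head protein (0.44, SE 0.13, adjusted p 0.017). Of all genes, 3.48% were called higher and 5.34% lower. An unadjusted p under 0.05 was found for 15 of the 56 RPS genes, against 990 of 4253 genes. The call of RPS29B was lost without bud32D (adjusted p 0.12) or gon7D (0.080), and 0 to 3 genes were called when each strain was left out.

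Across strains, RPS9A varied most among the members, with an SD of 0.79 log2 over 56 strains, followed by RPS22B at 0.51 and RPS14B at 0.45. Of all tested genes, 1.66%, 5.70% and 7.62% varied as much or more. The median SD over the 56 members was 0.23, as over all genes (0.23), and RPS27A varied least, at 0.12. RPS9A was called lower in 16 strains and higher in 1, RPS22B lower in 11 and RPS14B higher in 9 and lower in 8. Of all gene-by-strain values, 6.17% were lower and 10.2% higher. Less variable members were lower in as many strains or more, such as RPS25B and RPS9B in 18 and RPS2 in 17. With the set term RPS22B was lower in 3, RPS9B in 4, RPS25B in 5, RPS2 in 11 and RPS9A in 15.

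Without cycloheximide, 9 RPS genes were higher and 8 lower than with it in the same 6 strains (all genes, 5.09% higher and 17.2% lower). RPS24A was higher in 6 of 6 strains, by 0.40 to 0.63 (mean 0.50, SE 0.04, adjusted p 0.0010), and has unique words over 43.6% of its length. RPS26A was lower in 6 of 6, by 0.23 to 0.70 (−0.45, SE 0.06, adjusted p 0.0043), and RPS30A in 6 of 6 (−0.39, SE 0.05, adjusted p 0.0044). When each library was centred the counts were 26 and 3; without trm7D 26 genes were called, without BY4741 10, without mod5D 11 and without tyw4D 9. The drug, the harvest and the lysis cannot be told apart.

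In BY4741, elp3D and trm7D the RPS9 ratio had the same order with and without the drug, while BY4741 and tyw4D changed places (−3.28 and −3.18 with it, −3.50 and −3.59 without). In single drug-free libraries the log2 ratio was −3.50 in BY4741, −4.31 in elp3D and −2.73 in trm7D, beside −3.28, −4.08 and −2.65 with cycloheximide. RPS14 read 3.04, 2.38 and 3.32 without the drug and 2.85, 2.49 and 3.46 with it. RPS9A itself was 261 RPKM in BY4741 and 141 in elp3D without the drug, and RPS14B 284 and 369.

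Other genes of the small subunit's pathway moved with the RPS genes in some strains and against them in others. Large-subunit genes fell alongside in gon7D (78 of 82), sit4D (75), bud32D (74) and trm7D (56). Of all genes, 22.3%, 23.7%, 22.0% and 16.9% fell in these strains. In trm112D 41 large-subunit genes were called higher and 13 lower (all genes, 57.0% and 13.9%). Their median of 0.18 is below the 0.35 of all genes, as for the RPS genes. After centring 6 of the 82 were higher and 41 lower (all genes, 27.2% and 31.0%). The SSU processome builds the subunit in the nucleolus. Of its 37 genes, 32 were lower in gon7D (all genes, 22.3%), 33 in bud32D (22.0%) and 21 in sit4D (23.7%), with none higher. In trm112D, where 57.0% of all genes were called higher, 34 of those 37 were, with 1 lower, such as RCL1 (1.16), and after centring 22 were higher and 2 lower (all genes, 27.2% and 31.0%). The 21 genes listed apart as 40S assembly factors were all called higher in trm112D, such as PNO1 (0.85) and RRP7 (1.12). After centring 15 of the 21 were higher, with none lower. ASC1, a 40S partner not named RPS, fell in these 5 strains, by 1.15, 0.71, 0.93, 0.50 and 1.40 log2 in gon7D, sit4D, bud32D, trm7D and trm112D.

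In Elongator strains 20 of 37 processome genes were higher and 1 lower in footprints (all genes, 24.2% and 10.6%), and 18 were higher and 2 lower in RNA (all genes, 17.3% and 11.8%). After centring the higher calls numbered 11 in footprints and 14 in RNA. In KEOPS 28 fell in footprints (all genes, 17.9%). Of 18 tested regulators of ribosomal protein genes, after centring 3 were higher and 11 lower in gon7D (all genes, 28.8% and 37.4%). In bud32D 3 were higher and 6 lower (27.2% and 36.1%), and in trm7D 0 and 3 (19.2% and 27.2%). Among the 18, DOT6, a repressor of ribosome biogenesis genes, was higher before centring in gon7D (1.12) and bud32D (0.97). It was lower in trm7D (−0.76). In trm112D 15 of the 18 were called higher (all genes, 57.0%), among them IFH1, the activator of ribosomal protein genes, at 1.28, and after centring 8 were higher and 2 lower, with a median of 0.09. These lists were chosen with earlier results of these data known, and their counts are descriptions.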

How the data were processed

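Expression was deposited as RPKM made by the authors. Per the labels, the series' design text and the submitters' processing notes, footprints of rDNA were set aside, and unique matches to sacCer3 were counted for footprints of 27 to 34 nt and RNA reads of 27 nt (TopHat2 2.0.12, SAMtools, HOMER 4.6). The authors' deposited ratio tables (footprints over RNA, relative to wild type) served only to find which wild-type libraries each strain was divided by, which gives the processing sets. Depth was recovered from whole-read steps of the deposited RPKM, with 94.6% to 98.5% of low values within 0.1 of a whole read. The log2 of RPKM plus 1 was fitted with limma 3.58.1 in R 4.3.3 (empirical Bayes with a trend, none for ratios), keeping genes whose mean reached 10 RPKM, and calls had a Benjamini-Hochberg adjusted p under 0.05 over all genes or all 61 paralog pairs. Strains were compared with all 14 wild-type libraries. Pathways used 1 value a strain, and the drug comparison was blocked on strain. Translational efficiency was an assay-by-group interaction. kti13D, with 1 footprint library, entered only pathway tests. Fits were tested on simulated data. A named gene is among the 3 of smallest adjusted p per direction and comparison, the 12 largest ratio changes, the wild-type extremes or the 5 farthest RNA values; other values were chosen after they were seen. Members, lists and tests were chosen with earlier results of these data known. Chromosome medians, neighbouring genes, strain-by-strain pathway ranges, centring of the other lists and the intron motif were added after seeing the data. Some members entered every count but are not reported by name here.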

Additional observations from a re-analysis of the deposited data

Results flagged for a closer look

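Of 102 groups examined, 51 of wild-type RNA and 51 of drug-free differences, 4 had a sample set apart from the others, and chance sets apart about 1 group in 20. In wild-type RNA, library 10 read RPS21A at 738 RPKM where the other 9 libraries read 621 to 660, and RPS24B at 263 where they read 307 to 357. In the drug-free comparison, RPS11B differed by −0.23 log2 in elp3D against −0.14 to −0.10 in the other strains. In trm7D, RPS28B differed by −0.11 against 0.00 to 0.06 in the others.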

How the results depend on the processing

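Of 994 recomputed values for 53 named results, 972 kept direction and side, 21 were no longer past the threshold and 1 reversed (RPS22 A over B in gon7D, −0.80 without replicate 1 and 3.25 without replicate 2). RPS calls in footprints over all strains numbered 397 with the processing set as a term and 1187 with the replicate block; ratio calls numbered 117 with the set (majority reversed) and 488 with the block. Library numbers did not pair samples (median r 0.014 between strains over 1540 pairs, 186 of them above 0.1, and 0.0059 with wild type), so the block is given here alone. Centring gave 33 calls in trm112D (direction reversed), 11 in Elongator footprints and 29 without the drug. Thiolation footprints gave 4 calls without a filter and 12 with every library as a sample, and the thiolation RNA ratio 1 with a pseudocount of 5 and 2 with the set. Leaving out replicates or strains gave 208 to 715 calls over all strains (224 without replicate 1, 208 without replicate 2), 42 to 56 in gon7D, 43 to 54 in sit4D, 43 to 52 in bud32D, 18 to 40 in trm7D, 24 to 38 in trm112D, 5 to 8 in Elongator footprints, 1 to 9 in thiolation footprints, 1 to 3 in thiolation RNA, 0 to 1 in the thiolation RNA ratio, 0 to 3 in KEOPS translational efficiency (1 lower without bud32D, reversed), 73 to 279 ratio calls when a replicate was left out (86, reversed, without replicate 1; 296 without gon7D, an alternative added after seeing the data) and 9 to 26 without the drug. The causes were not tested. RPS9A and RPS22B have the lowest footprint RPKM of the members and so the fewest reads per base.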
